A study of Rattus norvegicus with 31 samples.

Results

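Expression of 7 genes was followed, namely *Fos*, *Jun*, *Junb*, *Egr1*, *Ier2*, *Btg2* and *Id1*. They were read from the probe sets annotated to 1 of them alone. Of the 7 genes, 6 were covered, by 9 of the 31042 probe sets left after controls were removed, and the annotation used here named no probe set for *Btg2*, so that no value is given for it. They were chosen by their log2 differences between low-fat and high-fat feeding in earlier results of the same arrays, among them that of *Fos* in liver. Diet differences are therefore given as descriptions: calls by rank products and limma are counted beside the share of all probe sets called, and nothing is read from them as a test of these genes.

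Immediate early genes are transcribed within minutes of a stimulus, without new protein synthesis, and their mRNAs are short-lived. Cyclic AMP, serum factors, stretch and stress act on them through kinases and through factors already bound at their promoters. *Fos*, *Jun* and *Junb* encode subunits of the AP-1 transcription factor, *Egr1* a zinc finger transcription factor, *Ier2* a small nuclear protein, and *Btg2* an antiproliferative protein tied to mRNA deadenylation. *Id1* encodes a helix-loop-helix protein without a DNA-binding region that holds basic helix-loop-helix factors off DNA, and it is a well-known target of bone morphogenetic protein (BMP) signalling.

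The arrays came from male Wistar rats that were 3 weeks old at the start. After a week on chow and a week of free access to their diets, they received one of the diets for 9 weeks. The L-group ate a diet with 65% of its energy from carbohydrate and 15% from fat, the M-group one with 60% and 20%, and the H-group one with 35% and 45%. The L-group ate freely and the others were fed the same energy, and food was withheld for 17 h before dissection in every group. Liver arrays covered 5 L, 4 M and 4 H rats, and the arrays of white (WAT) and brown (BAT) adipose tissue the same 5 L and 4 H rats, 31 arrays in all. Every rat was sampled once, in the fasted state, so neither a fed level nor a time course of these genes can be read from the data. Liver pieces were kept in RNAlater and the fat tissues were frozen in liquid nitrogen, and each tissue was put on its log2 scale by another method, so that a level is compared only within a tissue. Within a tissue, correlations between arrays ran from 0.984 to 0.997, and no array was a copy of another. All 8 hepatocyte markers in liver and all 7 measured adipocyte markers in both fat tissues were above the median probe set. In BAT, 7 of 8 brown adipocyte markers were above it as well. So were all 8 smooth muscle and all 8 endothelial markers there, and 2 of 11 skeletal muscle markers were below it. Hepatocyte markers were below it for 7 of 8 in WAT and 6 of 8 in BAT, where *Alb* stood at 13.14. A place above the median thus marks no cell type by itself.

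*Fos* had a second, dim probe set, which stayed between 2.56 and 3.13 in liver and did not vary in the fat tissues, and the brighter one stands for *Fos*. *Jun* had 3 probe sets, whose values ran together with r between 0.94 and 0.99 over the arrays of each tissue, and the one with the highest mean in a tissue stands for the gene. In BAT, 5 of the 9 arrays gave the same *Junb* value, 5.34, so the gene had little measurable spread there.

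The promoters are shown beside the covariation of the genes over rats of a diet, given further on, in which 9 of 10 pairs of immediate early genes passed in WAT, 3 in liver and 2 in BAT, and 0 of 15 pairs with *Id1*. No value here ties a promoter element to that covariation. Of the 7 genes, 5 have a promoter in the RefSeq table for the GRCr8 build, and *Fos* and *Jun* have none there. In the 250 bases before the annotated start, searched on both strands, *Ier2* held the full cyclic AMP response element TGACGTCA with its first base at -66, and *Btg2* held one at -201. That element occurred in 1.59% of 33469 promoters. Its core TGACG, which lies inside the full element on either strand and was found in 18.2% of promoters, also occurred in *Junb* at -155 and in *Egr1* at -135 and -66. *Egr1* held 2 CArG boxes, the letters read by serum response factor, at -105 and -83, against 1.5% of promoters with at least 1. A TATAAA box stood at -49 in *Junb* and at -59 in *Id1*, and in 12.9% of promoters. The AP-1 site TGACTCA (4.05% of promoters), the EGR1 site GCGTGGGCG (0.478%) and the palindromic SMAD binding element GTCTAGAC (0.173%) did not occur in these windows. The 3 sequences run 5′ to 3′ on the plus strand, and capitals mark the cyclic AMP response element or its core and the TATAAA box. They are those of *Junb* at chr19:40080876-40081125, *Ier2* at chr19:40399123-40399372 and *Id1* at chr3:161671314-161671563.
Junb: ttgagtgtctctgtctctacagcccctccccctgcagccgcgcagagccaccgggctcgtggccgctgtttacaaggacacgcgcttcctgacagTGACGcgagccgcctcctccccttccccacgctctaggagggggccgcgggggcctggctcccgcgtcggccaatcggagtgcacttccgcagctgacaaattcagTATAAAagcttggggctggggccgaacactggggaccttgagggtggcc
Ier2: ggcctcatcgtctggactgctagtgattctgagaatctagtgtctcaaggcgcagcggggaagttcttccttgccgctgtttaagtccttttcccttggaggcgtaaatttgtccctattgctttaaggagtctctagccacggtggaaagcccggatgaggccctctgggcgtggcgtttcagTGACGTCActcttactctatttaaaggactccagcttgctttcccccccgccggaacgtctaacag
Id1: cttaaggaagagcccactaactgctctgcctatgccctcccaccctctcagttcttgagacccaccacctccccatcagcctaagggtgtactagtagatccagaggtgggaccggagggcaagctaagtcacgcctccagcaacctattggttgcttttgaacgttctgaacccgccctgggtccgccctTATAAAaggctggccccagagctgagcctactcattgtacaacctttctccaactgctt

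The range of the immediate early genes among rats on the same diet was wide. For *Fos* in BAT, the SD within diet groups was 2.27 on the log2 scale, and 2 of the 15521 probe sets above the median level had a larger one. From the lowest to the highest array of a tissue, whatever the diet, *Fos* spanned 58.6-fold in BAT, 30.4-fold in WAT and 11.8-fold in liver. In both fat tissues the lowest and the highest array were those of L3 and L2, both on the L diet. In liver they were those of L1 and H13, so the liver span includes the diet difference. In WAT the within-diet SD of *Fos* was 1.74, exceeded by 6 of those 15521 probe sets, and in liver it was 0.83, exceeded by 79. *Egr1* came next in all 3 tissues, with SDs of 1.74 in BAT, 1.26 in WAT and 0.71 in liver. *Ier2*, *Jun* and *Junb* varied less, with SDs from 0.23 (*Junb* in BAT) to 0.73 (*Ier2* in BAT). *Id1* had an SD of 0.15 in liver, 0.32 in WAT and 0.68 in BAT. The median SD of the 15521 probe sets above the median level was 0.13 in liver, 0.0 in WAT and 0.17 in BAT. Each tissue was summarized by another method, so SDs, fold spans and these counts of probe sets are not compared between tissues. Because each array holds RNA of a whole tissue piece, a change in the share of a cell type and a change in its RNA per cell cannot be told apart.

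**Figure D1:**
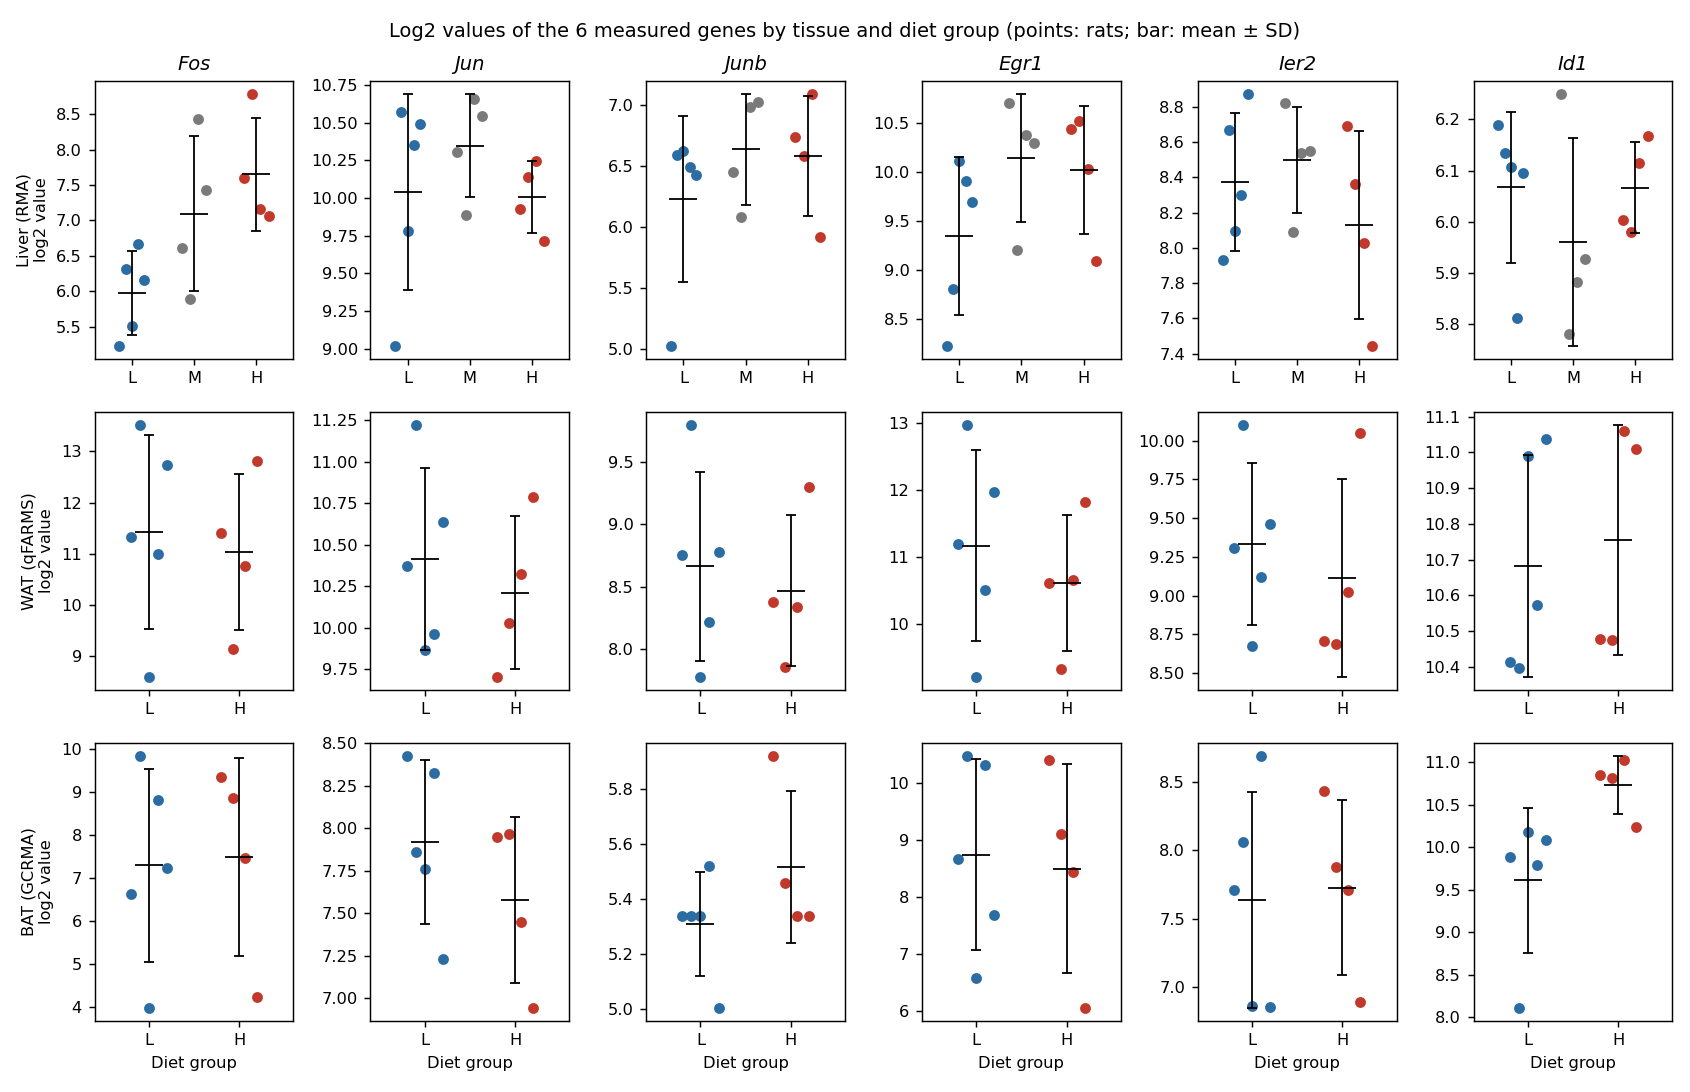
Log2 values of the 6 measured genes (columns) in liver, WAT and BAT (rows) by diet group, on a y axis of its own for each panel. Each point is 1 rat, and the bar gives the mean ± SD; *Fos* in liver and *Id1* in BAT are the panels in which the H-group lies wholly above the L-group, while *Fos* and *Egr1* in the fat tissues spread over several log2 units inside each group.

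In liver, *Fos* was higher in the H-group, *Egr1* was higher on average with overlapping groups, and the other 4 genes differed by 0.35 or less. *Fos* read 5.23, 6.32, 5.51, 6.67 and 6.15 in the L-group, 6.62, 5.89, 8.43 and 7.43 in the M-group, and 7.59, 8.79, 7.16 and 7.06 in the H-group. Every H rat lay above every L rat, and M rats lay in both ranges. The L to H difference of *Fos* was 1.68 on the log2 scale (SE 0.48), with group means of 5.97 ± 0.59 (SD, n = 5) and 7.65 ± 0.79 (SD, n = 4). The neighbouring values were 6.67 for the highest L rat and 7.06 for the lowest H rat. Averaged with its background probe set, the difference was 0.82.

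For *Egr1*, the liver values were 8.22, 8.80, 10.11, 9.90 and 9.69 in the L-group, 10.70, 9.20, 10.38 and 10.29 in the M-group, and 10.43, 10.51, 10.03 and 9.09 in the H-group. Rats L1 and L2 were low, and the lowest H rat, H16, lay inside the L range. The L to H difference was 0.67 (SE 0.41). *Junb* read 5.02 in L1 and between 6.43 and 6.62 in the other L rats, against 5.92 to 7.09 in the H-group, a difference of 0.35 (SE 0.33). *Jun* (-0.04, SE 0.27), *Ier2* (-0.24, SE 0.24) and *Id1* (-0.00, SE 0.10) had L to H differences no larger than their standard errors. *Id1* stayed between 5.78 and 6.25 over all 13 livers.

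By rank products at a false discovery rate under 0.05, 2 of the 6 genes, *Fos* and *Egr1*, were called higher in the H-group liver, where 0.664% of all probe sets were called higher and 1.41% in either direction. Limma called 0 of the 6, against 0.0354% of probe sets, and 1 of the 6 had an unadjusted p under 0.05, as had 9.05% of all probe sets. Of the 6, *Fos* alone had groups without overlap, as had 1.6% of all probe sets in that direction. The *Egr1* call was lost without L1, H12 or H13 and at a false discovery rate under 0.01. The *Fos* call was made in each of the 9 fits that left out 1 rat. These fits reuse the arrays that chose the genes, so they describe the calls and do not test them. Of the 11 cell type marker lists, 3 genes in all were called in this comparison, and the range of every list mean overlapped between L and H.

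The M-group was compared with both others in liver, sharing its L or H arrays with the comparison above. From L to M, *Fos* differed by 1.12 (SE 0.48) and *Egr1* by 0.80 (SE 0.41), and both were called higher by rank products, 2 of 6 genes against 0.142% of all probe sets. Both groups overlapped for both genes, and without M9, whose *Fos* value of 8.43 was the highest of the M-group, the *Fos* difference was 0.67 and neither gene was called. The *Egr1* call was also lost without L1 or M6. *Junb* (0.41, SE 0.33), *Jun* (0.31, SE 0.27), *Ier2* (0.13, SE 0.24) and *Id1* (-0.11, SE 0.10) were not called. From M to H, *Fos* differed by 0.56 (SE 0.51) and was the 1 gene of 6 called higher, against 0.438% of all probe sets, a call lost in 6 of the 8 fits that left out 1 rat (those without M6, M8, H12, H13, H15 or H16). *Egr1* (-0.13, SE 0.44), *Jun* (-0.34, SE 0.29), *Ier2* (-0.37, SE 0.26), *Junb* (-0.05, SE 0.35) and *Id1* (0.11, SE 0.10) were not called. Limma called 0 of 6 in both comparisons, with 0.00644% and 0.0129% of probe sets called, and *Fos* from L to M was the 1 unadjusted p under 0.05. Of all probe sets, 4.03% from L to M and 5.89% from M to H had such a p. No gene of the 6 had groups without overlap, as had 0.493% (higher) and 0.525% (lower) of probe sets from L to M and 1.52% and 1.42% from M to H.

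In WAT, the 5 immediate early genes were a little lower on average in the H-group and *Id1* was level, and all 6 differences were smaller than their standard errors. *Fos* read 11.32, 13.52, 8.59, 10.99 and 12.73 in the L-group and 11.40, 9.15, 10.76 and 12.82 in the H-group. The highest and the lowest rat, L2 and L3, were both on the L diet. The difference was -0.40 (SE 1.16). *Egr1* read 11.19, 12.97, 9.22, 10.51 and 11.97 in the L-group and 10.61, 9.35, 10.67 and 11.82 in the H-group, a difference of -0.56 (SE 0.84). L2 was again the highest and L3 the lowest of the 9 rats.

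*Jun* (-0.20, SE 0.34), *Junb* (-0.20, SE 0.46), *Ier2* (-0.22, SE 0.38) and *Id1* (0.07, SE 0.21) overlapped between the WAT groups as well, so 0 of 6 genes had groups apart, against 1.66% (higher) and 1.08% (lower) of the probe sets that varied. Rank products called *Fos*, *Egr1* and *Ier2* lower, 3 of 6 genes, where 1.07% of all probe sets were called lower and 1.81% in either direction. Limma called 0 of 6, against 0.0548% of probe sets, and gave 0 unadjusted p under 0.05, against 5.84% of probe sets. With array centring, limma called 0 probe sets and 1.5% had such a p. Since 26035 of the 31042 probe sets ranged by under 0.01 in WAT, shares over all probe sets there count mostly flat ones. Calls were not counted over the varying ones alone. Rank products score every pairwise ratio of rats, and these 3 calls fell on genes whose differences were below their standard errors. Without L2 or without L5, 0 of the 6 were called. Without H13 the count was 1, and without H16 it was 5. Without L2 or H13, the *Fos* difference turned to 0.12 and 0.23. Of the 11 marker lists, 9 genes were called in WAT. Among macrophage genes 2 of 9 were called higher, against 0.734% of all probe sets, with list means of 9.29 to 9.55 in L and 9.46 to 9.73 in H.

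In BAT, *Id1* was higher in the H-group, and the immediate early genes spread widely in both groups. *Id1* read 9.88, 8.10, 10.17, 9.79 and 10.08 in the L-group and 10.85, 10.82, 11.02 and 10.24 in the H-group. All 4 H rats lay above all 5 L rats, with 10.17 and 10.24 as the neighbouring values, and L2 lay apart at the low end. Group means were 9.61 ± 0.85 (SD, n = 5) and 10.73 ± 0.34 (SD, n = 4), a difference of 1.13 (SE 0.45). Without L2 it was 0.75 (SE 0.19), and over the 9 fits that left out 1 rat it ran from 0.75 to 1.29, with the rank products call kept in each. As in liver, these fits reuse the arrays that chose the genes and are a description.

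*Fos* in BAT read 6.62, 9.84, 3.97, 8.80 and 7.23 in the L-group and 9.35, 8.86, 7.47 and 4.23 in the H-group. Each group held high and low rats, and the difference was 0.18 (SE 1.49). *Egr1* read 8.67, 10.47, 6.58, 10.31 and 7.68 in the L-group and 10.40, 9.10, 8.43 and 6.05 in the H-group, a difference of -0.25 (SE 1.14). L3 and H16 were the lowest 2 rats for both genes. *Jun* (-0.34, SE 0.32), *Junb* (0.21, SE 0.15) and *Ier2* (0.09, SE 0.48) overlapped between groups.

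Rank products called *Id1* and *Fos* higher and *Egr1* lower in the H-group BAT, 3 of 6 genes, against 0.683% of probe sets called higher and 1.3% lower, 1.98% together. The *Fos* call stood on a false discovery rate of 0.046 for higher beside 0.095 for lower. The sign of the *Fos* difference turned without L3 (-0.65), H12 (-0.44) or H13 (-0.28), the last 2 with a call of lower, and that of *Egr1* without L2 (0.19), L4 (0.15) or H16 (0.57). Without L1, *Id1* was the 1 gene called. Limma called 0 of 6, as it called 0.0% of all probe sets, and 1 of the 6, *Id1*, had an unadjusted p under 0.05, as had 4.47% of all probe sets. Groups without overlap and higher in H were found for *Id1* and for 1.36% of the probe sets that varied.

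In BAT, rank products also called cell type markers, where 0.683% of all probe sets were called higher and 1.3% lower. Of 11 skeletal muscle genes, 8 were called higher in the H-group, of which *Mb* alone had groups apart. The mean log2 value of the 11 ran from 3.38 to 3.60 in the L-group and from 3.60 to 6.73 in the H-group, whose lowest rat lay inside the L range. *Acta1* was at 2.29, the lowest value of the tissue, in all L rats. Of 8 smooth muscle genes, 4 were called lower, with a mean of 6.75 to 7.51 in L and 6.66 to 6.94 in H. Of 8 endothelial genes, 1 was called higher (*Kdr*, 0.71, SE 0.18), with a mean of 7.734 to 8.002 in L and 7.87 to 8.01 in H. Among 8 brown adipocyte genes, *Cox8b* (0.63, SE 0.07) and *Slc27a2* (0.59, SE 0.17) were called higher. Both had groups apart, as had 1.36% of the probe sets that varied in that direction, and the list mean ran from 9.11 to 9.50 in L and from 9.35 to 9.70 in H. The other lists held 0 to 3 calls each. With the skeletal muscle mean as a covariate, the *Id1* difference was 0.88 (SE 0.60), that of *Fos* -0.42 (SE 2.04). Within diets, *Id1* and the muscle mean had r = 0.25 over 9 rats (rho = 0.43, r without the 2 farthest rats 0.02, exact permutation p = 0.148, adjusted p = 0.947 over 66 relations). The part of these markers in the *Id1* difference was otherwise not tested.

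**Figure D2:**
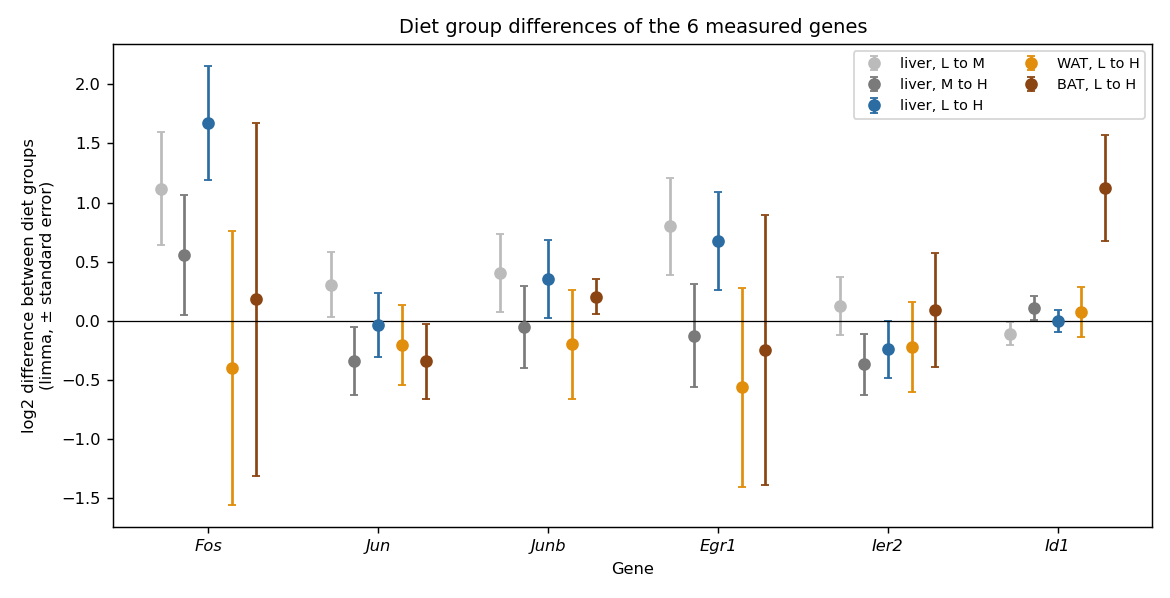
Log2 differences between diet groups (y axis) for the 6 genes (x axis), with limma standard errors as bars and 1 colour for each comparison. The highest points are *Fos* in liver (1.68 from L to H and 1.12 from L to M) and *Id1* in BAT (1.13), which were among the differences that chose the genes or share arrays with them, and the bars of *Fos* and *Egr1* in WAT and BAT span 0.

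For *Fos*, the L to H difference in WAT minus that in liver was -2.07 (SE 1.16), and BAT minus liver was -1.49 (SE 1.48). For *Id1*, BAT minus liver was 1.13 (SE 0.43) and BAT minus WAT was 1.05 (SE 0.50). The limma interaction of tissue and diet called 0 of the 6 genes in each pair of tissues, against 0.177% of probe sets for WAT and liver, 0.206% for BAT and liver and 0.0419% for BAT and WAT. Of these 18 interactions, 1 had an unadjusted p under 0.05, *Id1* in BAT against liver, where 10.6% of all probe sets had one. Nothing is read from it, since the interactions are built from the differences that chose the genes. The difference between tissues includes the different summarization of each tissue.

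The question of whether the genes rose and fell in the same rats apart from diet was put to values from which the mean of each diet group had been removed, with every order of the rats within diets enumerated. In WAT, all 10 pairs of immediate early genes were positive, with r from 0.78 to 0.98. *Fos* and *Egr1* had r = 0.98 over 9 rats (rho = 0.93, r without the 2 farthest rats 0.97), with an exact permutation p = 0.000694 and adjusted p = 0.0156 over 45 relations (rho p = 0.00556, adjusted 0.0227). Of the 10 WAT pairs, 9 had an adjusted p under 0.05, and the tenth, *Fos* with *Jun*, had r = 0.78 (rho = 0.80, 0.61 without the 2 farthest rats, exact p = 0.0278, adjusted p = 0.0691). Over all probe sets that varied in WAT, the median r with *Fos* was 0.01, and 0.719% exceeded 0.8.

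In BAT, the 10 pairs had r from 0.42 to 0.95, and 2 passed. *Fos* with *Egr1* had r = 0.95 (rho = 0.95, 0.87 without the 2 farthest rats, exact p = 0.00104, adjusted p = 0.0156, with the same values by rank). *Egr1* with *Ier2* had r = 0.94 (rho = 0.92, 0.91 without the 2 farthest rats, exact p = 0.00313, adjusted p = 0.0156, by rank p = 0.00521 and adjusted 0.0227). *Fos* with *Ier2* had r = 0.82 and fell just outside (rho = 0.82, 0.64 without the 2 farthest rats, exact p = 0.0174, adjusted p = 0.0521).

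In liver, r ran from 0.49 to 0.85 over the 10 pairs in 13 rats, and 3 passed. *Fos* with *Jun* had r = 0.67 (rho = 0.74, 0.76 without the 2 farthest rats, exact p = 0.00404, adjusted p = 0.0182, by rank 0.0227). *Jun* with *Junb* had r = 0.85 (rho = 0.60, exact p = 0.00286, adjusted p = 0.0156, by rank p = 0.0356 and adjusted 0.0943), and without the 2 farthest rats r was 0.56. *Junb* with *Egr1* had r = 0.72 (rho = 0.34, exact p = 0.0147, adjusted p = 0.0472, by rank p = 0.294 and adjusted 0.44), and without the 2 farthest rats r was 0.38, so the relation rested on those rats. Rat L1, at 5.02 for *Junb*, was the lowest of the 13 livers for *Fos*, *Jun*, *Junb* and *Egr1*.

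No relation of *Id1* with the others passed. Its 15 pairs had r from -0.37 to 0.11, and 0 of the 15 had a p under 0.05 before adjustment in the exact permutation test. The pair with *Fos* in liver had the lowest r (r = -0.37, rho = -0.47, -0.28 without the 2 farthest rats, exact p = 0.323, adjusted p = 0.469). All 6 genes were read from the same array of each rat. In all, 14 of the 45 relations passed, and 8 passed without rat 1 and 3 without rat 16. Rat 16 was the H rat with the lowest liver and BAT and the highest WAT values of *Fos*, *Egr1* and *Ier2*. Fewer rats leave fewer orders to enumerate, which limits how small an exact p can be. Over the fits that left out 1 rat, r in WAT ran from 0.97 to 0.99 for *Fos* with *Egr1*. It ran from 0.69 to 0.91 for *Fos* with *Jun*, the lowest WAT pair, and from 0.21 to 0.73 for *Jun* with *Egr1* in liver.

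**Figure D3:**
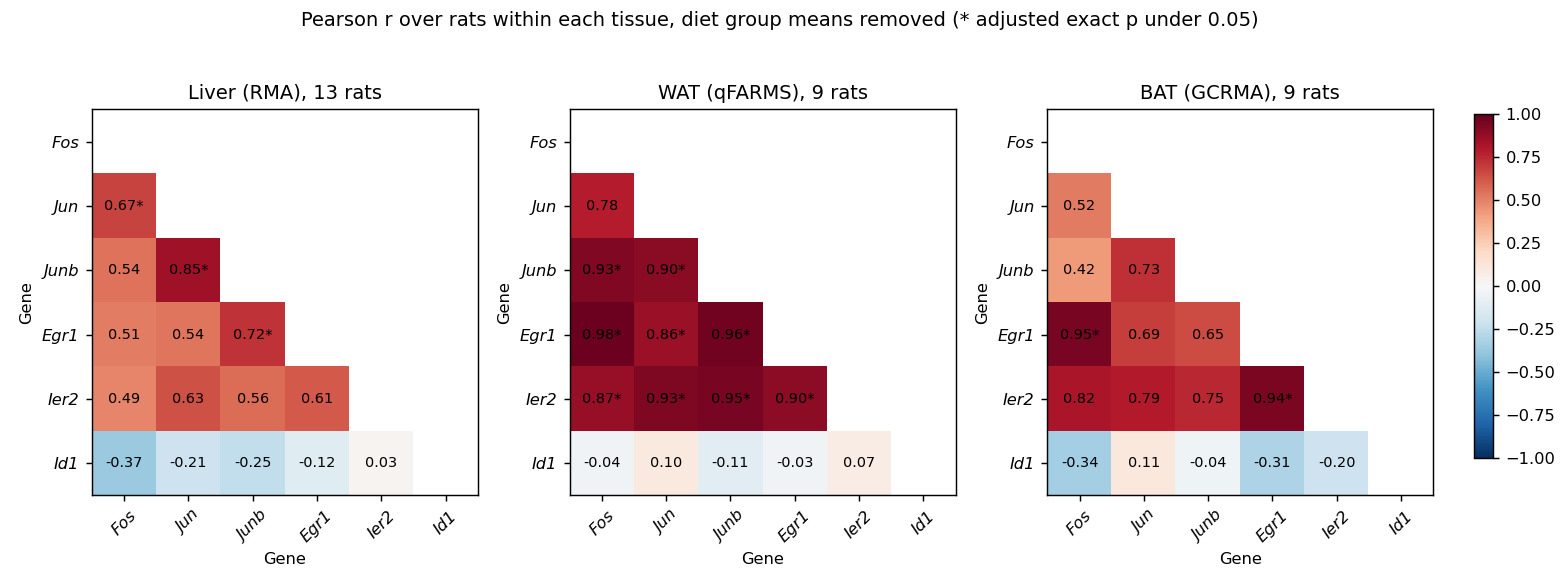
Pearson r between the 6 genes over rats in liver, WAT and BAT after the diet group means were removed, coloured from -1 to 1, with an asterisk where the exact permutation p, adjusted over 45 relations, was under 0.05. The 5 immediate early genes form a red block, deepest in WAT (0.78 to 0.98), and the row of *Id1* stays between -0.37 and 0.11.

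The adipocyte marker mean was the 1 of 66 relations of *Fos* and *Id1* with 11 marker means in 3 tissues that passed. In BAT, *Fos* ran with it at r = 0.95 over 9 rats (rho = 0.93, r without the 2 farthest rats 0.91, exact permutation p = 0.000347, adjusted p = 0.0229, by rank p = 0.000694 and adjusted 0.0458). The marker mean covered 7 genes and moved little, from 11.73 to 11.97 in the L-group and from 11.67 to 11.87 in the H-group. In WAT the same relation had r = 0.17 (rho = 0.33, 0.16 without the 2 farthest rats, exact p = 0.643, adjusted p = 0.947). The marker mean was taken without standardization. Of its 7 genes, *Lep*, at a mean of 4.56 in BAT, spanned 2.06 on the log2 scale there, and the others spanned 0.32 to 0.85. The parts of *Lep* and of adipocyte content in the relation with *Fos* were not tested.

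Between tissues of the same 9 rats, no relation passed. By Pearson's r, of 18 relations, the 6 genes in 3 pairs of tissues, 0 had an unadjusted exact permutation p under 0.05 and the smallest adjusted p was 0.769. By rank, 2 of the 18 had an unadjusted exact permutation p under 0.05, and the smallest adjusted p was 0.263. *Fos* in liver and BAT came first with r = 0.67 (rho = 0.63, 0.70 without the 2 farthest rats, exact p = 0.0774, adjusted p = 0.769, by rank p = 0.0944 and adjusted 0.567). Rat H13 was high and rats L3 and H16 were low in both tissues. *Fos* in liver and WAT had r = -0.12 (rho = -0.18, 0.49 without the 2 farthest rats, exact p = 0.75, adjusted p = 0.783), and *Fos* in WAT and BAT had r = 0.23 (rho = 0.28, -0.66 without the 2 farthest rats, exact p = 0.57, adjusted p = 0.78).

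*Egr1* in liver and WAT ran the opposite way, with r = -0.66 (rho = -0.78, -0.86 without the 2 farthest rats, exact p = 0.0854, adjusted p = 0.769, by rank p = 0.0347 and adjusted 0.312). L3, the rat with the lowest *Egr1* in WAT, had the highest *Egr1* of the L-group in liver. H16 was the reverse in the H-group. *Egr1* in WAT and BAT had r = 0.11 (rho = -0.05, -0.75 without the 2 farthest rats, exact p = 0.783, adjusted p = 0.783). *Id1* in WAT and BAT had r = 0.39 with rho = 0.80 (0.14 without the 2 farthest rats, exact p = 0.396, adjusted p = 0.78, by rank p = 0.0146 and adjusted 0.263).

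Over the 6 genes, the median r was -0.19 for liver and WAT, 0.11 for liver and BAT and -0.05 for WAT and BAT. Over all probe sets that varied in both tissues, the medians were 0.18, 0.06 and 0.17. From the 5th to the 95th percentile of those probe sets, r ran from -0.56 to 0.84 for liver and WAT, a wide scatter over 9 rats.

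**Figure D4:**
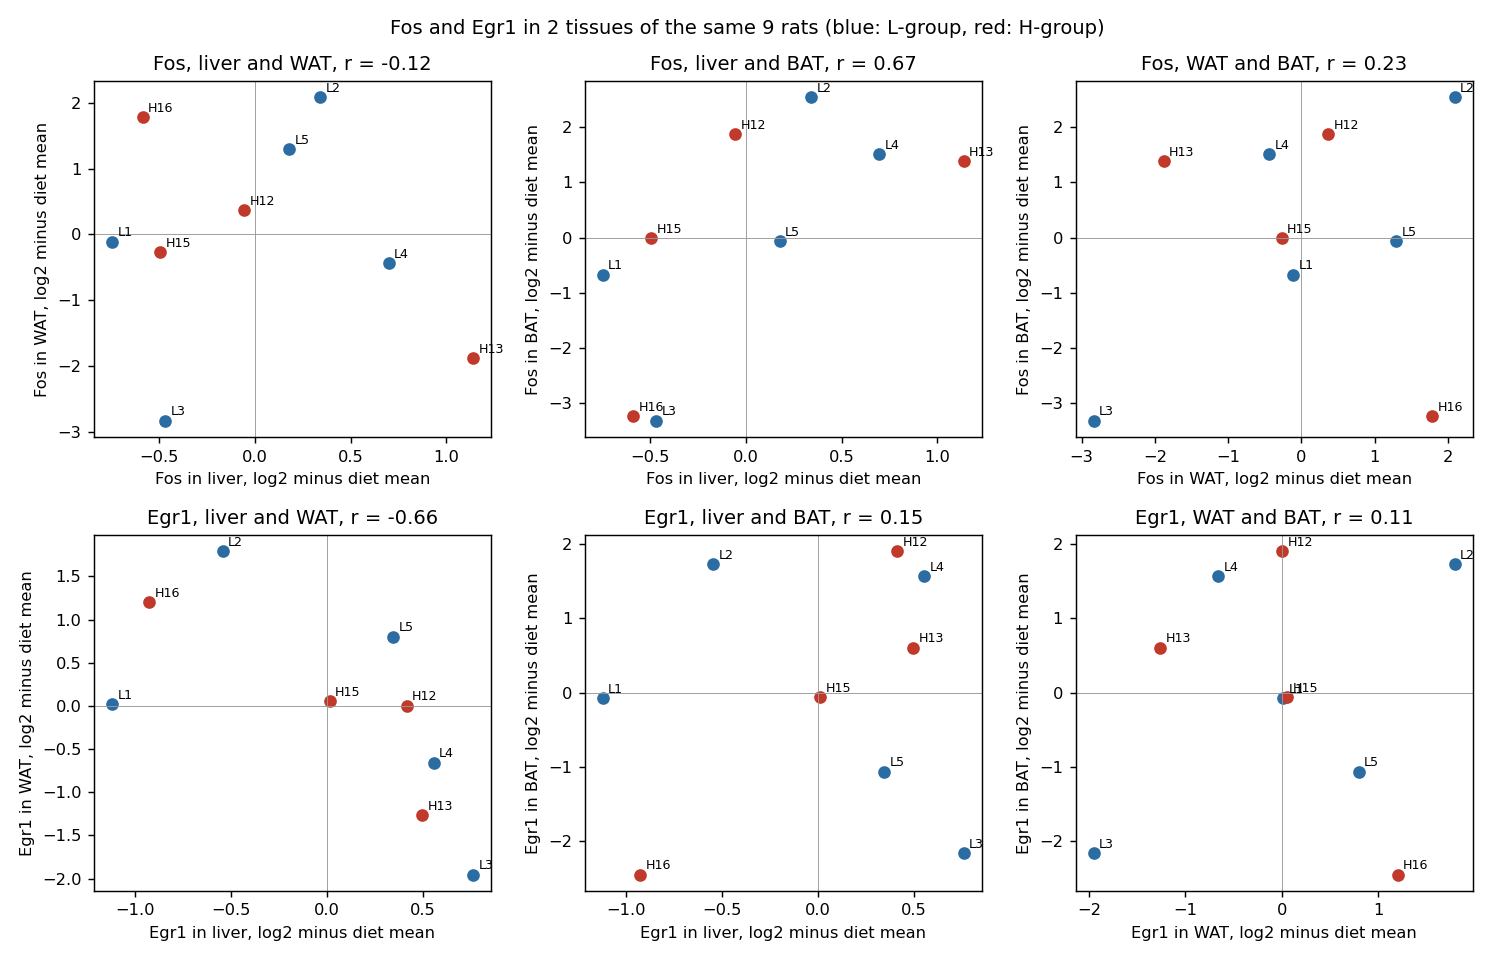
*Fos* (upper row) and *Egr1* (lower row) in pairs of tissues of the same 9 rats, each axis giving the log2 value minus the diet group mean, with L rats in blue and H rats in red. The points of *Fos* in liver and BAT (r = 0.67) run upward and those of *Egr1* in liver and WAT (r = -0.66) downward; neither passed the exact permutation test after adjustment.

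Other genes of the pathway were counted in lists drawn up with the members known. Of 52 other immediate early genes, rank products called 2 higher and 3 lower in liver from L to H, where 0.664% and 0.751% of all probe sets were called. *Cyr61*, a matricellular protein, differed by 0.75 (SE 0.34). The stress sensors *Gadd45b*, *Gadd45g* and *Gadd45a* differed by 0.57 (SE 0.26), -0.65 (SE 0.89) and -0.55 (SE 0.37), and *Crem* by -0.52 (SE 0.12). *Gadd45b* and *Crem* had groups apart, as had 1.6% (higher) and 1.46% (lower) of all probe sets. From L to M, 2 were called higher, *Atf3* (1.26, SE 0.67), a stress-induced repressor, and *Cyr61* (0.89, SE 0.34), against 0.142% of all probe sets called higher and 0.261% lower. In that comparison 39 of 52 lay on the higher side, as did 49.4% of all probe sets. From M to H, 1 was called higher and 5 lower, against 0.438% and 0.309% of all probe sets, led by *Atf3* (-1.17, SE 0.70), *Gadd45g* (-0.95, SE 0.94) and *Crem* (-0.64, SE 0.13), a cyclic AMP-responsive regulator. The median difference of the list was -0.02, 0.09 and -0.08 in these comparisons, against -0.0006, -0.0012 and 0.0002 over all probe sets.

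In WAT, 10 of the 52 were called lower and 1 higher, against 1.07% and 0.734% of all probe sets, with a list median of 0.00 and 16 genes flat. *Fosb*, an AP-1 subunit (-0.87, SE 1.17), *Atf3* (-0.70, SE 0.61), *Cyr61* (-0.65, SE 0.73) and *Errfi1*, a feedback inhibitor of EGF receptor signalling (-0.62, SE 0.73), had the largest differences. In BAT, 7 were called higher and 6 lower, against 0.683% and 1.3% of all probe sets, with *Klf4* (1.10, SE 0.40) and *Klf2* (0.92, SE 0.58), zinc finger factors, *Cyr61* (0.84, SE 0.79) and *Fosb* (-0.82, SE 0.83) in front and a list median of 0.00. As with the members, the standard errors of many of these values were as large as the values. Limma called 0 of the 52 in each of the 5 comparisons, with 1 to 7 unadjusted p under 0.05. Of all probe sets, 4.03% (L to M in liver) to 9.05% (L to H in liver) had such a p.

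The 15 measured genes for inducers and the kinase cascade held 0 rank products calls in any comparison, and 0 limma calls with at most 2 unadjusted p under 0.05. Of 24 genes of the ID family and BMP signalling, *Id4* (1.23, SE 0.55) was called higher and *Id2* (-0.70, SE 0.33) lower in BAT, and the ligand *Bmp4* (0.37, SE 0.25) higher in WAT, with 0 calls in liver. Of 11 genes of the BTG and TOB family and the deadenylase, *Tob1* (-0.32, SE 0.13) was called lower in WAT, the 1 call in the 5 comparisons. Limma called 0 genes of both lists, with at most 3 unadjusted p under 0.05 in a comparison. Of all probe sets, rank products called 0.683% higher and 1.3% lower in BAT, and 0.734% and 1.07% in WAT. Over the 5 comparisons, 0.403% to 1.98% were called in either direction, and 4.03% to 9.05% had an unadjusted limma p under 0.05.

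Other immediate early genes were set beside *Fos* over the rats of a diet, and no relation passed adjustment. Of 36 that varied in WAT, 33 had a positive r with *Fos*, the median r was 0.48, and 6 exceeded 0.8, named here after their values were seen, namely *Dusp1* (0.92), *Fosb* (0.91), *Zfp36* (0.89), *Klf6* (0.85), *Dusp6* (0.83) and *Egr2* (0.83). *Dusp1* and *Dusp6* encode phosphatases that turn off MAP kinases, and *Zfp36* an mRNA-destabilizing protein. In BAT the median was 0.18 over 45 genes, 1 of them above 0.8 (*Fosb*, 0.88), and in liver 0.22 over 52 genes, none of which exceeded 0.8. A positive r was found for 31 of the 45 in BAT and 33 of the 52 in liver. Over all varying probe sets the medians were 0.01 in WAT, 0.16 in BAT and 0.00 in liver. The shares above 0.8 were 0.719%, 0.877% and 0.203%. None of the 188 relations of these lists passed adjustment. For *Fos*, the exact permutation test gave 10 p under 0.05 in WAT, 2 in BAT and 6 in liver, the last with *Egr3* at a negative r (-0.76). For *Id1* with its list it gave 2, 1 and 0. The shares of all probe sets with a positive r or with such a p were not computed, so nothing is read from these counts. *Id1* had its highest r with *Bambi*, a BMP pseudoreceptor, in WAT (0.85, rho = 0.80, 0.91 without the 2 farthest rats). In BAT its highest r was with *Id3* (0.71, rho = 0.58), and without the 2 farthest rats that r was 0.19.

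As a description over the rats of each tissue, the genes most like the mean of the 5 immediate early genes were *Egr2* (0.94), *Fosb* (0.93), *Osgin2* (0.93), *Spp1* (0.92) and *Zfp36* (0.92) in WAT, among 3643 probe sets. In BAT they were *Syncrip* (0.93), *Lgals3*, *Sptbn1*, *Bloc1s6* and *Ing2* (each 0.92), among 11602, and in liver *Ttc38* (0.88), *Ube2v2* (0.88), *Selenop* (0.84), *Pygb* (0.83) and *Pola1* (0.83), among 12075. In WAT, 3 of the 5 were themselves genes of the immediate early list, and in BAT and liver none were. The genes most like *Id1* were *Pigx* (0.97), *Cep68* (0.90) and *Zcchc9* (0.88) in liver, *Amigo2* (0.93), *Hey1* (0.90) and *Klhl42* (0.89) in WAT, and *Naa40* (0.97), *Dag1* (0.95) and *Metrnl* (0.95) in BAT. *Hey1* encodes a Notch-responsive transcriptional repressor. Such maxima are taken over many probe sets and 9 or 13 rats. For *Id1* in BAT, rat L2 stood at -1.50 from its diet mean, farther than any other rat.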

How the data were processed

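Log2 probe set values were taken as deposited by the authors, who had summarized GeneChip Rat Genome 230 2.0 arrays by RMA in liver, qFARMS in WAT and GCRMA in BAT, each tissue on its own. No CEL file was used here. RMA shrinks low values, qFARMS leaves uninformative probe sets flat (25762 in WAT), and GCRMA pulls dim probe sets to a floor, which limits small differences. Of 31042 probe sets, 57 controls left out before, 20826 had 1 gene symbol. Members and lists were chosen with earlier results of these data known.

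The authors' rank products method was rerun over all pairwise log2 ratios (100 permutations, false discovery rate under 0.05, each direction by itself), in Python 3.11.15. Log2 differences and standard errors came from limma 3.58.1 in R 4.3.3, fitted over all probe sets of a tissue, with all 13 arrays in liver. Both were tested on simulated data. Correlations used values minus the diet means, with exact two-sided permutation of rats within diets and Benjamini-Hochberg adjustment over 18 and 45 relations (families smaller than planned, since *Btg2* had no probe set), 66 for marker means and 188 for gene lists, the last added after values were seen. Where a gene had several probe sets, the one with the highest mean in the tissue stood for it. Besides the members, the text names called genes of each list, at most 4 by size of difference, and the 5 and 3 genes most like the immediate early mean and *Id1*. For the other immediate early genes in liver from L to H, all called genes are named.

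Groups and rat numbers came from the labels, which give the same rat number in each tissue. Samples of 1 rat were thus paired between tissues, and their deviations from the diet means correlated at 0.06 to 0.52 over the probe sets compared. The number of arrays limits the precision, and depth has no counterpart here. Alternatives were limma, a false discovery rate of 0.01, low probe sets left out, array centring, renewed quantile normalization, the mean of a gene's probe sets, array weights, a muscle covariate, the rat as a block and each rat left out.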

Additional observations from a re-analysis of the deposited data

Results flagged for a closer look

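Of 42 groups of 4 or 5 rats (6 genes in 7 groups), 3 held a rat far from the rest by Dixon's test, where chance gives about 1 in 20. *Junb* in liver was 5.02 in rat L1 against 6.43 to 6.62 in the other L rats. *Id1* in liver was 5.81 in rat L4 against 6.09 to 6.19 in the other L rats. *Id1* in BAT was 8.10 in rat L2 against 9.79 to 10.17 in the other L rats.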

How the results depend on the processing

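Of the 6 genes, limma called 0 in every diet comparison, also with array weights, with the compared liver groups alone and with the skeletal muscle mean as a covariate in BAT. Rank products called 2 genes in liver from L to H (1 at a false discovery rate under 0.01, 1 to 2 with a rat left out). In WAT they called 3 (1 with probe sets of a gene averaged, 0 to 5 with a rat left out). In BAT they called 3 (1 at a rate under 0.01, 1 with dim probe sets left out, 1 to 3 with a rat left out). From L to M they called 2 (1 at a rate under 0.01, 1 with probe sets averaged, 0 to 2 with a rat left out), and from M to H 1 (0 at a rate under 0.01, 0 with dim probe sets left out, 0 with probe sets averaged, 0 to 1 with a rat left out). Among differences that rank products called, the sign turned for *Fos* in WAT without L2 (0.12) or H13 (0.23; -1.11 to 0.23 over all rats left out), *Fos* in BAT with the muscle covariate (-0.42) and without L3 (-0.65), H12 (-0.44) or H13 (-0.28; -0.65 to 1.26 over all), and *Egr1* in BAT with array weights (0.76) and without L2 (0.19), L4 (0.15) or H16 (0.57; -0.88 to 0.57 over all). Differences that were not called changed sign too with a rat left out, namely *Egr1* (-0.44 to 0.18) and *Junb* (-0.24 to 0.17) from M to H, *Jun* (-0.29 to 0.10) and *Id1* (-0.07 to 0.03) in liver from L to H, *Junb* (-0.48 to 0.08), *Jun* (-0.39 to 0.0002) and *Id1* (-0.03 to 0.17) in WAT, and *Ier2* in BAT (-0.15 to 0.37). The cause was not tested.

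With the rat as a replicate block, the fit of tissue and diet called 0 of the 6 genes in each pair of tissues, as without it. It called 55, 77 and 13 probe sets in place of 55, 64 and 13. The estimated correlation within a rat was 0 for liver and WAT, 0.0192 for liver and BAT and 0 for WAT and BAT. At a correlation of 0 the block changes nothing, so the equal counts are no check on the pairing. For BAT and WAT, 32 probe sets were called with dim ones left out, and 0 to 105 with a rat left out. Between tissues 0 of 18 relations passed under each alternative, with a rat left out as well. Within tissues 14 of 45 passed, 12 by rank, 16 with diet means kept, with array centring or with probe sets averaged, and 3 to 16 with a rat left out.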
